A study of Mus musculus with 16 samples.

Results

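A set of 10 genes of interleukin-6 family signaling and its feedback loop was followed in mouse quadriceps muscle across genotype and exercise. They were the receptor genes Il6ra, Il6st, Lifr and Osmr, the ligand gene Lif, the transcription factor gene Stat3, the feedback inhibitor genes Socs2, Socs3 and Cish, and the myokine gene Il15. The genes were taken by name from a matrix of 18872 genes measured by poly(A)+ RNA sequencing, and all 10 were found, each on a row of its own. Values were FPKM, fragment counts corrected for the length of the transcript and the size of the library, which allow levels to be set side by side between genes per length. Of the 10, 8 averaged at least 1 FPKM over the mice and entered the fit of 10519 genes. Lif and Socs3 lay under that minimum and were compared by exact permutation tests.

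The study compared 16 male mice of 13 to 15 weeks of age, 4 in each of 4 groups. Exercised VV mice were homozygous for CaMK2gVV, a knock-in that replaces the oxidizable methionine pair (MM) of the kinase CaMKIIγ with valines (VV), and had run 350 m uphill on a treadmill 3 h before the muscle was taken. Exercised MM mice were wild-type littermates that ran the same protocol, sedentary VV mice carried the knock-in and did not run, and sedentary MM mice were wild-type littermates that did not run. The line was made in C57BL/6 embryonic stem cells and backcrossed to C57BL/6J, the knock-in is not restricted to muscle, mice that did not finish the run had been excluded, and whole quadriceps was homogenized. The knock-in changes codons and not the amount of transcript by design, so the level of Camk2g does not check the genotype labels.

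IL-6 binds the receptor chain encoded by Il6ra, and leukemia inhibitory factor (LIF) and oncostatin M bind LIFR and OSMR. Each of these complexes includes or pairs with gp130, the shared signal transducer encoded by Il6st. Janus kinases on the receptor tails then phosphorylate STAT3, which enters the nucleus and turns on genes that include its own inhibitor Socs3. SOCS2 and CISH do the equivalent for growth hormone and cytokine receptors that signal through STAT5. Contracting muscle is known to release IL-6, and IL-15 is another cytokine made in muscle. Whole muscle holds fibers, vessels, connective tissue and resident immune cells, so that a lower level here cannot tell fewer cells of a type from less RNA per cell.

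The libraries were muscle by their markers and similar in depth. All 12 muscle markers, among them Ckm and Acta1, were detected, with sums of 107780 to 140490 FPKM over the mice, while neutrophil markers summed to at most 3.81 FPKM and T and NK cell markers to at most 1.40 FPKM, with Ly6g at 0 in 3 of the 4 groups. The read totals are unknown. Relative depth was taken from the most common ratio between mice, over genes above 0 and below 0.5 FPKM in both. By this measure the libraries were within 1.23 times of each other. Camk2g averaged 54.5 ± 2.99 FPKM in exercised VV and 60.3 ± 2.35 FPKM in exercised MM mice, and 60.6 ± 2.71 FPKM in sedentary VV and 69.0 ± 3.40 FPKM in sedentary MM mice (SD, n = 4 each). Every VV mouse lay below every MM mouse of the same condition. Of all fitted genes, 3.39% did not overlap between VV and MM in exercised mice and 1.90% in sedentary mice, in either direction. The log2 difference between VV and MM was −0.15 in exercised mice (limma adjusted p = 0.627) and −0.19 in sedentary mice (limma adjusted p = 0.835). The first number of a mouse's name took 8 values, of which only 2296 occurred in both exercised and sedentary mice, so exercise and whatever this number stands for can hardly be told apart.

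The 10 genes spanned a wide range of levels, with the shared transducer at the top and the ligand at the bottom. Over all 16 mice, Il6st averaged 41.1 FPKM, Stat3 14.5 FPKM, Lifr 8.36 FPKM, Cish 6.60 FPKM, Il15 5.02 FPKM, Socs2 3.58 FPKM, Osmr 3.19 FPKM, Il6ra 2.41 FPKM, Socs3 0.890 FPKM and Lif 0.0933 FPKM. Il6st was above Stat3 in 16 of 16 mice, Stat3 above Lifr in 16, Il6ra above Socs3 in 16 and Socs3 above Lif in 16. Lifr was above Cish in 15 mice, Il15 above Socs2 in 14 and Osmr above Il6ra in 14. Neighbors in the middle of the order crossed in some mice, Cish being above Il15 in 10 of 16 and Socs2 above Osmr in 10 of 16, so those levels did not differ beyond the spread. The gp130 transcript stood at 17.1 times the IL-6-specific chain by the means over all mice. The plot of FPKM by mouse shows the 10 genes in this order.

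**Figure D1:**
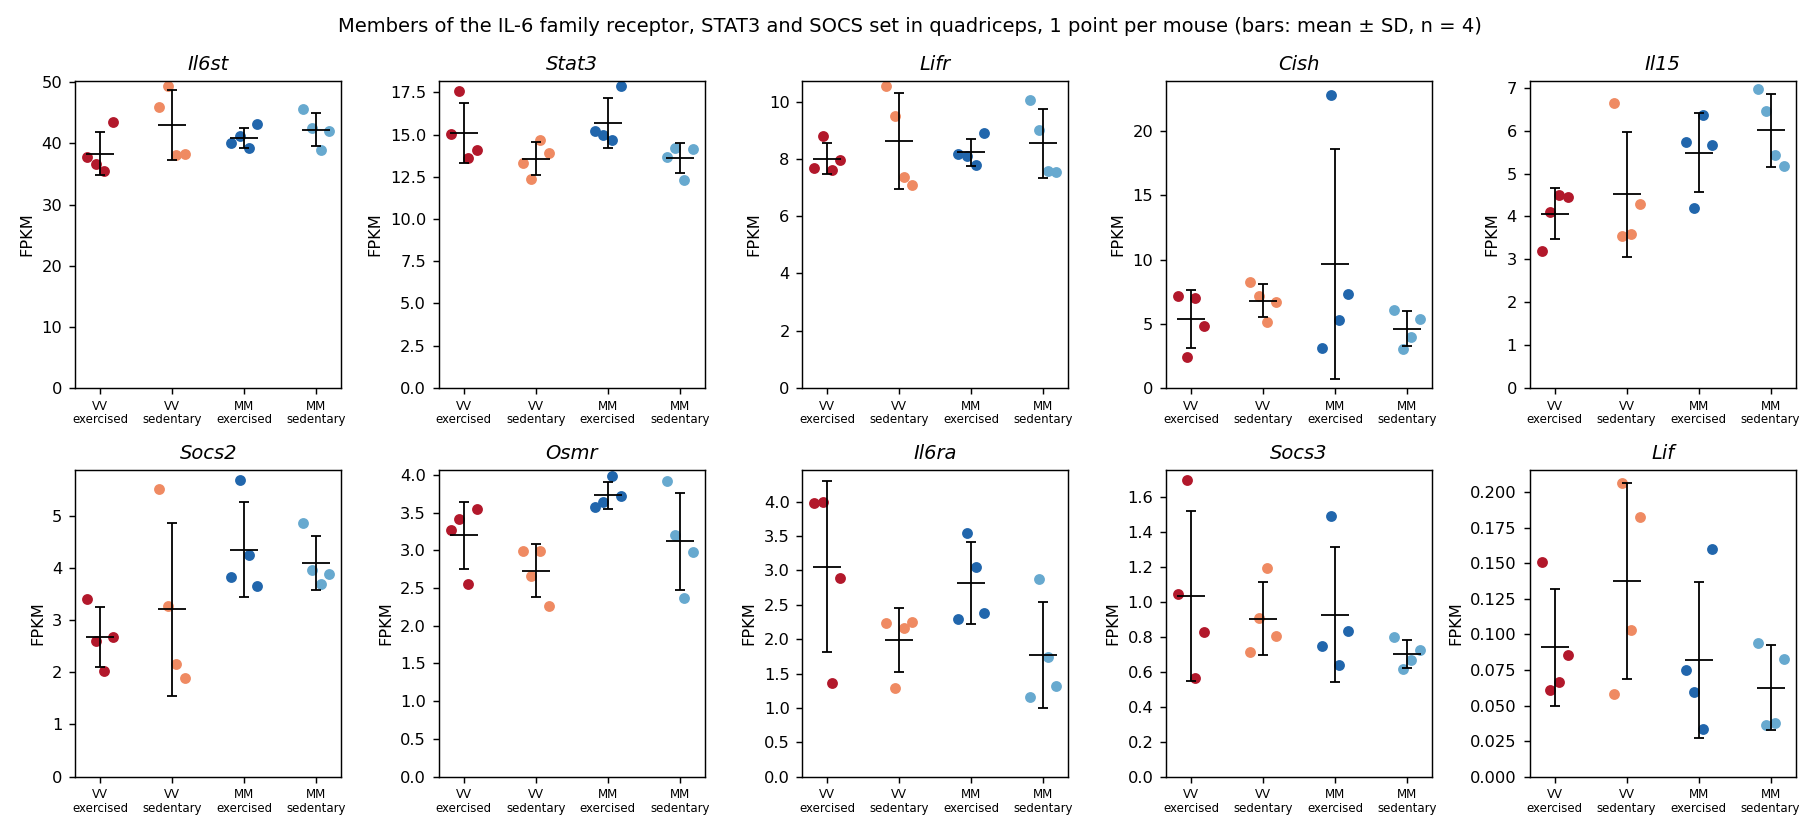
FPKM of the 10 genes (y axes, linear, from 0) by group (x axes), with 1 point per mouse and bars for the mean ± SD of 4 mice. Il6st, Stat3 and Lifr varied least among the mice, 1 exercised MM mouse stood at 22.8 FPKM of Cish, and the 4 exercised VV mice were all below the 4 exercised MM mice for Socs2 and for Osmr.

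No gene of the 10 passed an adjusted p of 0.05 in any comparison. For exercise in VV mice, 0 of the 8 fitted genes passed where 0.276% of all fitted genes did, and for exercise in MM mice 0 of 8 where 1.23% did (limma, Benjamini-Hochberg over 10519 genes). For exercise averaged over both genotypes, 0 of 8 passed where 3.14% of all genes did. Neither the difference between the exercise effects of VV and MM (0% of all genes) nor VV against MM in exercised mice (0%) or in sedentary mice (0.00951%) called any of them. At an unadjusted p of 0.05, exercise in VV called 0 of 8 (10.1% of all genes), exercise in MM 2 of 8, Il6ra and Stat3 (10.7%), and their average 3 of 8, Il6ra, Osmr and Stat3 (18.7%). The median log2 difference of the 8 genes was −0.10 in VV, beside −0.08 over all fitted genes, and 0.14 in MM, beside −0.05.

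Among the receptors, Il6ra had the largest difference with exercise. It measured 3.98, 4.00, 1.36 and 2.89 FPKM in the 4 exercised VV mice, against 2.23, 1.29, 2.16 and 2.26 FPKM in sedentary VV mice. In MM mice it measured 2.30, 3.55, 3.05 and 2.38 FPKM after exercise, against 1.16, 2.87, 1.74 and 1.32 FPKM in sedentary mice. In VV, 3 of 4 exercised mice lay above every sedentary mouse and the other, 2296-2, below 3 of them, and in MM 2 of 4 lay above every sedentary mouse. The log2 difference was 0.52 ± 0.32 in VV (SE, 95% confidence interval −0.15 to 1.19, limma adjusted p = 0.602) and 0.70 ± 0.32 in MM (0.03 to 1.37, limma adjusted p = 0.438).

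Averaged over genotypes, Il6ra was 0.61 ± 0.22 higher on the log2 scale in exercised mice (0.14 to 1.08), which missed the threshold at a limma adjusted p of 0.156. Whether Il6ra passed depended on a single library. Without exercised VV mouse 2296-2 the difference was 0.78 and the limma adjusted p 0.0306. Within the first number 2296, the only one with both conditions, Il6ra stood at 1.36 and 2.89 FPKM in the 2 exercised mice and at 2.26 FPKM in the sedentary mouse.

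Osmr, the oncostatin M receptor chain, measured 3.27, 3.42, 2.55 and 3.54 FPKM in exercised VV mice, against 2.99, 2.66, 2.99 and 2.26 FPKM in sedentary VV mice. In exercised MM mice it measured 3.57, 3.63, 3.98 and 3.72 FPKM, against 3.92, 3.21, 2.37 and 2.98 FPKM in sedentary MM mice. Exercised values were the higher in both genotypes by the means, with groups that overlapped. The log2 difference was 0.22 ± 0.15 in VV (limma adjusted p = 0.633), 0.27 ± 0.15 in MM (limma adjusted p = 0.536) and 0.24 ± 0.10 averaged (SE, interval 0.02 to 0.47, limma adjusted p = 0.218).

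Il6st and Lifr, whose products pair in the LIF receptor, had the smallest exercise differences among the 4 receptors. Il6st measured 37.7, 36.7, 35.5 and 43.5 FPKM in exercised VV mice, against 46.0, 49.5, 38.1 and 38.3 FPKM in sedentary VV mice, and 39.2 to 43.1 FPKM in exercised MM mice, against 39.0 to 45.7 FPKM in sedentary MM mice. Lifr ranged over 7.60 to 8.79 FPKM in exercised VV mice, against 7.10 to 10.5 FPKM in sedentary VV mice. It ranged over 7.79 to 8.89 FPKM in exercised MM mice, against 7.56 to 10.1 FPKM in sedentary MM mice. The log2 difference of Il6st was −0.16 in VV (interval −0.35 to 0.03) and −0.05 in MM (−0.24 to 0.15), and that of Lifr −0.09 (−0.36 to 0.18) and −0.04 (−0.31 to 0.22). The same 3 sedentary mice, VV 2074-5, VV 2074-2 and MM 2032-3, held the highest 3 values of both genes.

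Stat3 separated the exercised from the sedentary MM mice, by a small margin. It measured 15.2, 15.0, 14.7 and 17.9 FPKM in exercised MM mice, against 13.7, 14.2, 12.3 and 14.2 FPKM in sedentary MM mice, with no overlap. In VV mice it measured 15.1, 17.6, 13.6 and 14.1 FPKM after exercise, against 13.3, 12.4, 14.7 and 13.9 FPKM in sedentary mice, and 2 of 4 exercised mice lay above every sedentary one. The log2 difference was 0.20 ± 0.095 in MM (limma adjusted p = 0.457), 0.15 ± 0.095 in VV (limma adjusted p = 0.614) and 0.18 ± 0.067 averaged (limma adjusted p = 0.173). Of all fitted genes, 6.74% had exercised and sedentary MM mice that did not overlap, and Stat3 was 1 of 8 in this set. In VV the share was 4.91%, and 0 of 8 did so.

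**Figure D2:**
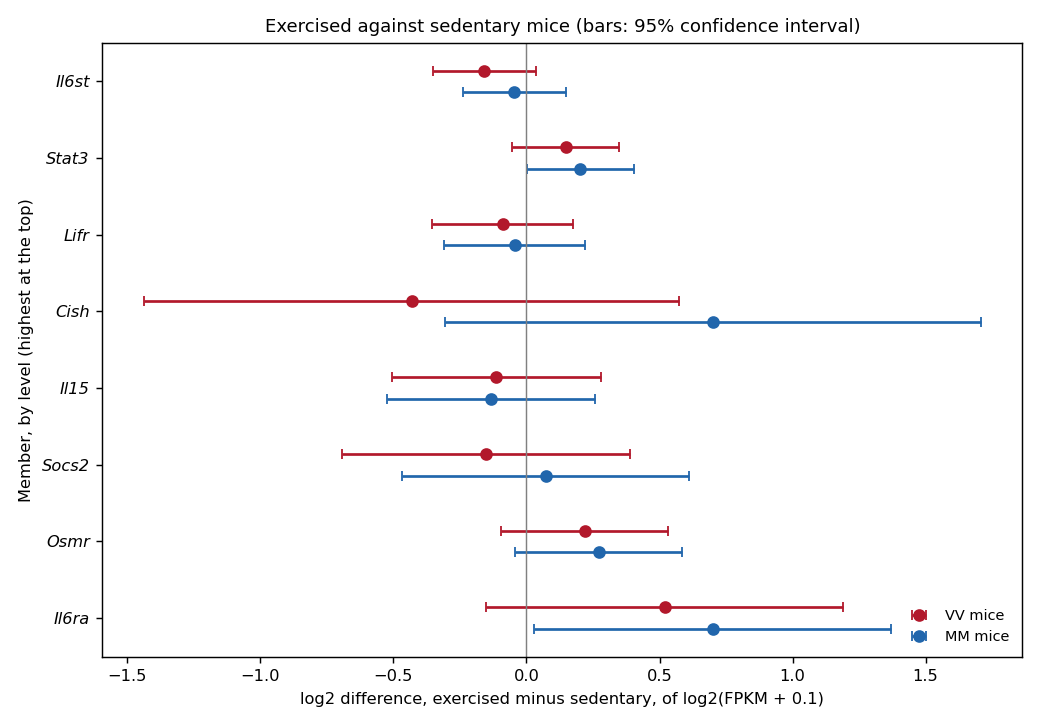
Log2 difference between exercised and sedentary mice (x axis, on log2(FPKM + 0.1)) for the 8 fitted genes (y axis), VV above MM, with 95% confidence intervals. Only the MM intervals of Il6ra (0.03 to 1.37) and Stat3 (0.0025 to 0.40) leave out 0, before adjustment over all genes.

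LIF itself was close to the limit of measurement. Lif stood at 0.151, 0.0610, 0.0663 and 0.0859 FPKM in exercised VV mice, against 0.0580, 0.207, 0.103 and 0.183 FPKM in sedentary VV mice. In MM mice it stood at 0.0752, 0.0596, 0.0333 and 0.160 FPKM after exercise, against 0.0940, 0.0362, 0.0376 and 0.0825 FPKM in sedentary mice. No pair of groups separated, with two-sided exact permutation p-values of 0.286 for exercise in VV and 0.657 for exercise in MM (70 splits, smallest possible p 0.0286). At these values a few fragments set the level, and a difference was not detectable.

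The inhibitor Socs3, the usual readout of STAT3 activity, was also low and did not separate by exercise. It measured 1.04, 1.70, 0.563 and 0.826 FPKM in exercised VV mice, against 0.712, 0.905, 1.19 and 0.801 FPKM in sedentary VV mice. In exercised MM mice it measured 0.745, 1.49, 0.637 and 0.830 FPKM, against 0.798, 0.614, 0.665 and 0.724 FPKM in sedentary MM mice. A single exercised mouse of each genotype, VV 2161-7 and MM 2161-9, held the highest 2 values. The difference in mean log2 value was 0.10 in VV (exact permutation p = 0.771) and 0.30 in MM (exact permutation p = 0.314).

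Between genotypes, Lif and Socs3 were each higher in 3 of 4 sedentary VV mice than in every sedentary MM mouse. The share of all genes with such an order was not computed, and at the level of Lif a few fragments set the value. The difference in mean log2 value was 0.52 for Lif and 0.31 for Socs3, each with an exact permutation p of 0.114 (two-sided, 8 such tests made over the 2 genes). The result depended on sedentary VV mouse 2074-2. Without it the differences were 0.70 for Lif and 0.40 for Socs3, and both reached the smallest p that 35 splits allow, 0.0286, in a setting chosen after the data were seen.

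Because Socs3 and Cish are textbook targets of STAT factors, their promoter windows were read from the RefSeq table of GRCm38.p6 (250 bases before to 50 after the start), and the palindrome TTCNNNGAA, which STAT dimers bind, was looked for on both strands. Of the 10 genes, 8 had a window, and only Socs3 and Cish held the motif. The other genes with a window, Il6ra, Il6st, Lif, Lifr (2 windows), Osmr and Stat3, had none of these letters in it. Of all 32851 windows in the table, 8.30% held the motif. The stretches that carry it in these genes are shown with the motif in capitals, 5′ to 3′.
Socs3, chr11:117969502-117969531, minus strand, bases −165 to −136 from the start: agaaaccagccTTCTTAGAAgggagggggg
Cish, chr9:107296599-107296688, plus strand, bases −60 to 30 from the start: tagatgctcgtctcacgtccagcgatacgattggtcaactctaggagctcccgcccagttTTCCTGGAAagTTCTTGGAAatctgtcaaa
The Socs3 motif covered bases −154 to −146 and lay inside the annotated span of the gene (chr11:117966079-117970336), which begins upstream of the start used in the table. Cish had 2 copies, at bases 1 to 9 and 12 to 20. A match of letters is not evidence of binding in this muscle.

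Cish, an inhibitor of cytokine receptors that signal through STAT5, had the widest spread of the set, with an SD of 0.74 on the log2 scale within groups against 0.13 for Stat3. It measured 7.17, 2.43, 7.03 and 4.85 FPKM in exercised VV mice, against 8.28, 7.13, 5.12 and 6.69 FPKM in sedentary VV mice. In exercised MM mice it measured 3.12, 22.8, 5.30 and 7.34 FPKM, against 6.06, 3.03, 3.94 and 5.35 FPKM in sedentary MM mice. By the means the genotypes went opposite ways. In VV, 2 of 4 exercised mice lay below every sedentary mouse, and in MM 2 of 4 lay above every sedentary mouse, with overlap in both.

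The log2 difference of Cish with exercise was −0.43 in VV (interval −1.44 to 0.57) and 0.70 in MM (−0.30 to 1.71). The difference between these effects was the largest of the set, −1.13 ± 0.67 (−2.55 to 0.29, limma adjusted p = 1.00). For the other 7 genes that difference lay between −0.22 and 0.02. Of all fitted genes, 1.85% had an unadjusted p under 0.05 in this comparison, and of the 8 genes here 0 did. Single mice set much of these values. Without exercised VV mouse 2161-7, at 2.43 FPKM, the VV exercise difference was −0.099 in place of −0.43. Without exercised MM mouse 2161-9, at 22.8 FPKM, the MM exercise difference was 0.16 in place of 0.70, and the difference between genotypes in exercised mice was −0.0035 in place of −0.55.

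Socs2, a growth hormone-induced inhibitor of the same pathway, had lower means in VV than in MM in both conditions, without passing the threshold. The 4 exercised VV mice measured 3.41, 2.59, 2.02 and 2.68 FPKM, against 3.83, 5.68, 4.26 and 3.65 FPKM in exercised MM mice, with no overlap. In sedentary mice the values were 5.52, 3.27, 2.15 and 1.89 FPKM in VV, against 4.86, 3.95, 3.68 and 3.89 FPKM in MM, and 3 of 4 VV mice lay below every MM mouse. The log2 difference was −0.69 ± 0.26 in exercised mice (−1.23 to −0.14, limma adjusted p = 0.627) and −0.46 ± 0.26 in sedentary mice (−1.0 to 0.08, limma adjusted p = 0.835). Its exercise difference was −0.15 (−0.69 to 0.39) in VV and 0.07 (−0.47 to 0.61) in MM.

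Il15, the myokine that signals through the IL-2 receptor β chain and the common γ chain, was also lower in VV by the means. Exercised VV mice measured 3.21, 4.10, 4.51 and 4.45 FPKM, against 5.75, 4.20, 6.37 and 5.66 FPKM in exercised MM mice. Sedentary VV mice measured 6.65, 3.54, 3.60 and 4.28 FPKM, against 6.97, 6.46, 5.43 and 5.18 FPKM in sedentary MM mice. The groups overlapped through exercised MM mouse 2161-9 and sedentary VV mouse 2074-2. The log2 difference was −0.42 ± 0.19 in exercised mice (−0.81 to −0.03, limma adjusted p = 0.627) and −0.44 ± 0.19 in sedentary mice (−0.83 to −0.05, limma adjusted p = 0.835). With exercise it differed by −0.11 (−0.50 to 0.28) in VV and by −0.13 (−0.52 to 0.26) in MM, or by −0.012 in MM without mouse 2161-9.

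At an unadjusted p of 0.05, VV against MM called 2 of the 8 genes in exercised mice, Socs2 and Il15, where it called 7.08% of all genes, and 1 of 8 in sedentary mice, Il15, where it called 4.47%. In exercised mice VV and MM did not overlap for Socs2 and Osmr, 2 of 8, beside 3.39% of all genes, and in sedentary mice for 0 of 8, beside 1.90%. The Osmr margin was narrow, with a highest VV value of 3.54 FPKM and a lowest MM value of 3.57 FPKM. Its log2 difference in exercised mice was −0.23 (−0.54 to 0.09, limma adjusted p = 0.647). The median difference over all fitted genes was −0.08 in exercised and −0.03 in sedentary mice. Averaged over both conditions, a contrast added after the values had been seen, Il15 was −0.43 ± 0.13 and Socs2 −0.57 ± 0.18 in VV relative to MM. Both had a limma adjusted p of 0.378, and 0 of 8 passed, beside 0.00951% of all genes. That contrast gave 13.1% of all genes an unadjusted p under 0.05.

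Mice that share the first number of their name were also compared, with no test. Among the mice numbered 2161, all exercised, Socs2 stood at 3.41 and 2.59 FPKM in VV and 3.83 and 5.68 FPKM in MM. Il15 stood at 3.21 and 4.10 FPKM in VV and 5.75 and 4.20 FPKM in MM. The VV mice were the lower for each gene, for Il15 by a narrow margin (4.10 against 4.20 FPKM). With so few mice this order says little, and its share of all genes was not computed. Among the mice numbered 2074, all sedentary, Socs2 stood at 5.52 and 3.27 FPKM in VV and 3.95 FPKM in MM, and Il15 at 6.65 and 3.54 FPKM in VV and 6.46 FPKM in MM, the single MM mouse lying between the VV mice. Adipocyte markers had the same sign, with 0 of 9 fitted above 0 in either condition. The sum of the 9 markers was 541 to 692 FPKM in exercised VV and 561 to 1391 FPKM in exercised MM mice, and 532 to 896 FPKM in sedentary VV and 676 to 908 FPKM in sedentary MM mice, none of the 9 passed, and none was at 0 in a group. In exercised mice macrophage markers (0 of 8 fitted above 0, median −0.57, none passing) and fibroblast markers (1 of 11, median −0.31, none passing) were also lower in VV, whereas in sedentary mice 7 of 8 and 8 of 11 were above 0. The part of these cells in the result was not tested.

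**Figure D3:**
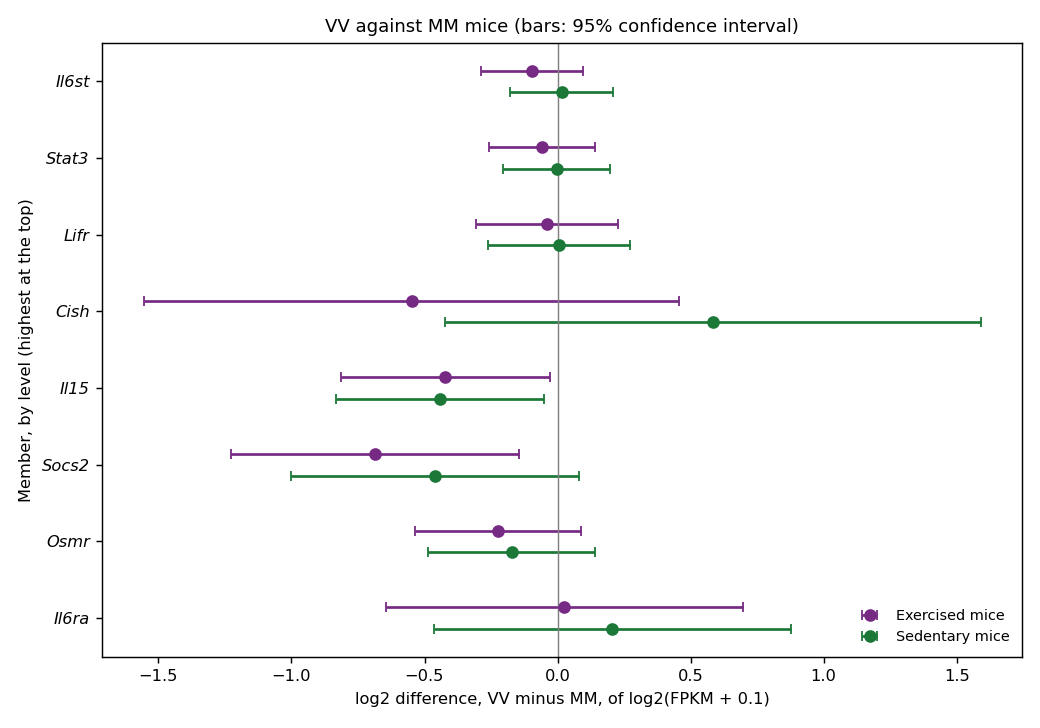
Log2 difference between VV and MM mice (x axis, on log2(FPKM + 0.1)) for the 8 fitted genes (y axis), exercised above sedentary, with 95% confidence intervals. Socs2 and Il15 lie below 0 in both conditions (−0.69 and −0.46, −0.42 and −0.44), and the intervals of Cish are the widest.

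The other ligands and receptors of the family gave no call. Il6, the founding member, was 0 to 0.240 FPKM in exercised VV and 0 to 0.197 FPKM in exercised MM mice, against 0.0741 to 0.152 FPKM in sedentary VV and 0 to 0.297 FPKM in sedentary MM mice, so little of the transcript was detected in any group 3 h after the run. Osm, which encodes oncostatin M, was at most 0.114 FPKM and Il11 at most 0.105 FPKM. Of 11 listed ligand genes 3 were fitted and 0 passed for exercise in either genotype, in the order VV then MM with log2 differences of −0.38 and −0.17 for Ctf1 and −0.13 and −0.16 for the joined entry Cntf,U05342,Zfp91. Of 9 listed receptors 6 were fitted and 0 passed. Cntfr, the ciliary neurotrophic factor receptor, had a log2 difference of 0.51 in VV (limma adjusted p = 0.516) and 0.62 in MM (limma adjusted p = 0.360), and Il11ra1 −0.19 and −0.13.

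Among the pathway lists, known STAT3 target genes had the most calls. It was also the longest list, with 22 fitted genes where the others had 3 to 14. Of 26 listed, 22 were fitted, 1 rose with exercise in VV (0.276% of all fitted genes were called in either direction) and 4 rose in MM (1.23% of all), none fell in either, and the median log2 difference was 0.24 in VV and 0.32 in MM, beside −0.08 and −0.05 over all fitted genes. The list was drawn up with earlier results of these data known, so its count and median are a description and no test of STAT3 output. It shares Il6st, Stat3 and Socs3 with the set. Il6st and Stat3 were not among those that rose, Socs3 was not fitted, and no gene of the list passed for the difference between the genotypes' exercise effects (0% of all genes did).

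Maff, a small MAF transcription factor, rose in both genotypes. It measured 5.25, 6.08, 4.68 and 4.59 FPKM in exercised VV mice, against 1.98, 2.26, 1.44 and 2.51 FPKM in sedentary VV mice, a log2 difference of 1.31 (limma adjusted p = 0.00991). In exercised MM mice it measured 5.64, 5.26, 4.56 and 2.96 FPKM, against 2.25, 1.85, 1.38 and 1.19 FPKM in sedentary MM mice, a log2 difference of 1.41 (limma adjusted p = 0.00234). The exercised and sedentary mice did not overlap in either genotype.

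Myc, the growth-promoting transcription factor, measured 4.77, 2.98, 1.86 and 2.87 FPKM in exercised VV mice, against 0.912, 1.01, 1.73 and 2.35 FPKM in sedentary VV mice. In exercised MM mice it measured 3.18, 3.75, 1.79 and 3.38 FPKM, against 0.765, 1.53, 1.04 and 0.805 FPKM in sedentary MM mice. It rose in MM by 1.46 on the log2 scale (limma adjusted p = 0.0332) and had a difference of 1.03 in VV (limma adjusted p = 0.269). Il4ra, the interleukin-4 receptor, also in the list of IL-15 and common γ chain genes, rose in MM by 0.72 (limma adjusted p = 0.0253) with 0.33 in VV (limma adjusted p = 0.490). It ranged over 2.91 to 3.63 FPKM in exercised VV mice, against 2.27 to 3.51 FPKM in sedentary VV mice, and over 3.39 to 4.05 FPKM in exercised MM mice, against 1.72 to 2.58 FPKM in sedentary MM mice. Hif1a, the hypoxia-inducible factor, rose in MM by 0.48 (limma adjusted p = 0.0454) with 0.26 in VV (limma adjusted p = 0.453). It ranged over 6.82 to 8.61 FPKM in exercised VV mice, against 5.74 to 7.09 FPKM in sedentary VV mice, and over 8.69 to 11.4 FPKM in exercised MM mice, against 6.34 to 7.55 FPKM in sedentary MM mice.

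These 3 MM calls were near the threshold. With the first number of the mouse's name as a random block, all 3 were lost, at limma adjusted p-values of 0.143 for Myc, 0.0697 for Il4ra and 0.0830 for Hif1a. The call of Myc was lost on leaving out any 1 of 2032-3, 2127-1, 2127-3, 2161-4, 2161-9 and 2297-3, at limma adjusted p-values of 0.0873 to 0.116. The call of Il4ra was lost on leaving out any 1 of 2074-1, 2127-1, 2127-3, 2161-4, 2246-4 and 2297-3, at 0.0503 to 0.0926. The call of Hif1a was lost on leaving out any 1 of 2032-3, 2074-1, 2127-1, 2127-3, 2161-4, 2161-9, 2246-4, 2297-3, 2074-2, 2074-5 and 2296-5, at 0.0508 to 0.143. Averaged over genotypes, Maff (1.36, limma adjusted p = 5.27e-05), Myc (1.24, 0.00497), Il4ra (0.53, 0.0113) and Hif1a (0.37, 0.0150) rose and held their calls without any 1 mouse. In this average 4 of the 22 fitted genes of the list were called higher and 1 lower, beside 3.14% of all fitted genes in either direction. As the list was drawn up with earlier results known, this too is a description.

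By sign, 18 of the 22 fitted genes of the list were above 0 with exercise in VV and 17 in MM, so several lay below. Igfbp5, which encodes a binding protein of insulin-like growth factors, was the only one called lower. Averaged over genotypes it fell by 0.39 on the log2 scale with exercise (limma adjusted p = 0.0118), a call lost with the first number of the mouse's name as a random block (limma adjusted p = 0.0501). It ranged over 91.2 to 119 FPKM in exercised VV mice, against 131 to 156 FPKM in sedentary VV mice, and over 122 to 136 FPKM in exercised MM mice, against 132 to 206 FPKM in sedentary MM mice. Fos, an immediate early gene, had the largest MM difference of the list, 2.03, which did not pass (limma adjusted p = 0.168).

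Markers of other cells stood beside these genes as follows. Macrophage and monocyte markers summed to 43.1 to 132 FPKM in exercised VV and 36.5 to 116 FPKM in sedentary VV mice, and to 65.6 to 152 FPKM in exercised MM and 46.6 to 80.4 FPKM in sedentary MM mice. Of 8 fitted, none passed in VV or MM, with medians of −0.04 and 0.81 on the log2 scale, and none was at 0 in a group. Fibroblast and fibro-adipogenic markers summed to 823 to 1286 FPKM in exercised VV and 689 to 1226 FPKM in sedentary VV mice, and to 881 to 1305 FPKM in exercised MM and 705 to 959 FPKM in sedentary MM mice. Of 11 fitted, 0 passed in VV (0.276% of all fitted genes did) and 1 in MM (1.23% of all), with medians of 0.02 and 0.41. The call was the joined entry Ly6a,Ly6c1 (limma adjusted p = 0.0478), which cannot be assigned to Ly6a alone. The part of these cells in the results was not tested.

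**Figure D4:**
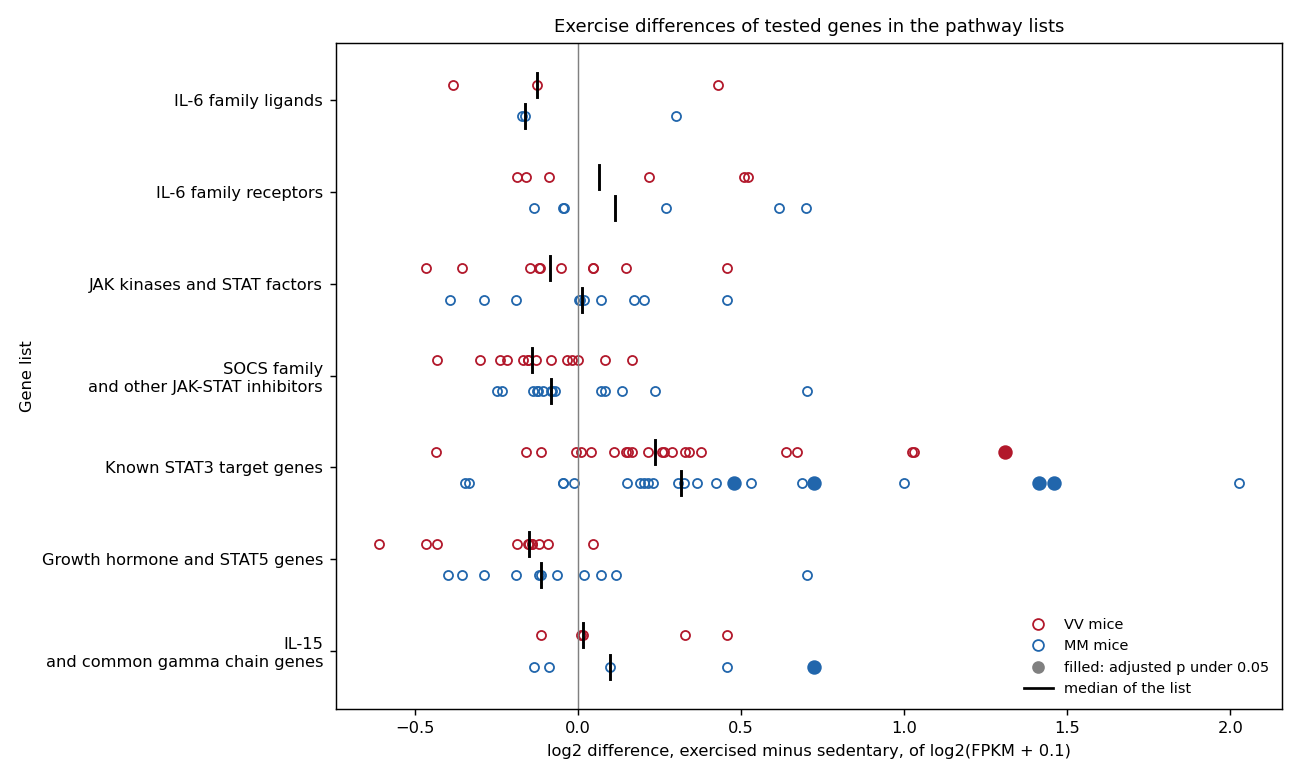
Log2 difference between exercised and sedentary mice (x axis, on log2(FPKM + 0.1)) of each fitted gene in 7 pathway lists (y axis), VV above MM in each list, with filled points for an adjusted p under 0.05 and black ticks for the list's median. The 4 filled MM points and 1 filled VV point among known STAT3 target genes are Maff, Myc, Il4ra and Hif1a, and the filled MM point among the IL-15 genes is Il4ra again.

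The kinases, STAT factors and inhibitors themselves gave no call for exercise in VV or in MM. Of 11 JAK and STAT genes 10 were fitted and 0 passed for exercise in VV or MM, with medians of −0.08 and 0.01. Stat5a had log2 differences of −0.47 in VV (limma adjusted p = 0.301) and −0.29 in MM (limma adjusted p = 0.530), and the joined entry Insl3,Jak3, which cannot be assigned to Jak3 alone, 0.46 in both.

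Of 18 SOCS family and other JAK-STAT inhibitor genes 14 were fitted and 0 passed for exercise, with medians of −0.14 in VV and −0.08 in MM. In the order VV then MM, the log2 difference was −0.13 and −0.25 for Pias1 and −0.17 and −0.23 for Pias2, inhibitors of activated STATs, and 0.16 and 0.24 for the phosphatase gene Ptpn1. Of 12 growth hormone and STAT5 genes 11 were fitted and 0 passed, with medians of −0.15 and −0.11. Bcl6, a repressor of STAT5 target genes, had −0.19 in VV and −0.40 in MM, and Igfbp3 −0.14 and −0.35. Of 12 IL-15 and common γ chain genes 5 were fitted, and Il4ra was the single call, in MM. Il2rg, the common γ chain itself, had 0.02 in VV and 0.10 in MM.

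For the 3 genes of the set with the largest average exercise effect, the genes with the most similar profile over the 16 mice were found by Pearson correlation of log2 values, as a description. They were Foxo3 (r = 0.88), the joined entry Nelf,Pnpla7 (0.86) and Plin4 (0.86) for Il6ra, Prnp (0.89), Ctnna1 (0.88) and Fmnl2 (0.85) for Osmr, and Lgals3 (0.82), Spon1 (0.78) and Flt4 (0.77) for Stat3. The mice share groups and first numbers, so these values mix differences between groups with those among mice.

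By position in GRCm38.p6, Lif (chr11:4257568-4272514), Stat3 (chr11:100886806-100939594) and Socs3 lie on chromosome 11, and Osmr (chr15:6813568-6874968) and Lifr (chr15:7090610-7197489) are close together on chromosome 15. Il6ra (chr3:89869324-89913196), Il15 (chr8:82331624-82403252), Cish (chr9:107296659-107302784), Socs2 (chr10:95383903-95417321) and Il6st (chr13:112464070-112506860) lie apart. The annotation places Gm46811 over Il6ra, Gm46295 over Stat3 and Gm33230 over Socs2. The sources do not say whether reads were counted by strand, so reads of these overlapping genes may be included.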

How the data were processed

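Poly(A)+ RNA of whole quadriceps from 16 mice was sequenced as paired-end reads from a stranded library. The authors deposited 1 FPKM value per gene and mouse, without read counts. Cuffdiff 2.2.1, StringTie, TopHat, SAMtools and FastQC, with the build mm10, appear in the processing notes of the submitters without their roles, and the sources used here do not give the annotation. No 2 mice had identical values, 7 genes had missing values (16 in all) and 1 row without any values was left out.

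FPKM was taken to log2(FPKM + 0.1), which understates changes of low genes. Genes that averaged 1 FPKM or more were fitted with limma 3.58.1 in R 4.3.3, with 4 group means and trended, robust empirical Bayes, and p-values were adjusted by Benjamini-Hochberg over all 10519 genes (threshold 0.05). Of these entries, 271 join several gene names. Lif and Socs3 were tested by exact two-sided permutation over 70 splits. Fits were tested on simulated data. Mice were separate animals, and groups came from the labels.

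The members and gene lists were chosen with earlier results of these data known. All members were named, with the list genes that passed in any comparison and up to 3 per list with the largest MM exercise difference, and Il6, Osm and Il11 in addition, chosen after their values were seen. Il27, Il31, Il11ra2, Lnk and Il2 of the lists matched no row, and 2 list genes that the rule would name are not reported here. Alternatives were 2 other pseudocounts, 2 other filters, 2 rescalings, plain empirical Bayes, sample weights, a fit of only the groups compared, the first number of the mouse's name as a random block, and each mouse left out in turn. Promoter windows and coordinates came from RefSeq tables of GRCm38.p6, and figures were drawn with matplotlib.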

Additional observations from a re-analysis of the deposited data

Results flagged for a closer look

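Il6ra in sedentary VV mouse 2074-5, at 1.29 FPKM, lay far below the other 3 mice of its group, which stood at 2.16 to 2.26 FPKM. It was the only such mouse among the 40 combinations of gene and group examined, where chance marks about 1 in 20.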

How the results depend on the processing

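Of 761 recomputed values of the 8 fitted genes under the alternatives, 755 kept their direction and their side of the threshold. As none of the 8 genes passed with all mice, staying on that side says little about the size of a difference. The MM exercise difference of Cish ranged over 0.16 to 1.1 with 1 mouse left out. With 1 mouse left out, the exercise difference ranged over −0.10 to 0.037 for Lifr in MM, −0.060 to 0.16 for Socs2 in MM, −0.18 to 0.012 for Lifr in VV, −0.36 to 0.14 for Socs2 in VV and −0.21 to 0.085 for Il15 in VV. The sign turned without sedentary MM mouse 2032-3 (Lifr, MM), exercised MM mouse 2161-9 (Socs2, MM) and sedentary VV mouse 2074-2 (the VV values). The cause was not tested. The number of the 8 genes past the threshold for exercise averaged over genotypes was 0 to 1 (1 without 2296-2, Il6ra), and for the exact tests of Lif and Socs3 0 to 2 (2 without 2074-2).

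With 1 mouse left out, the number of all genes past the threshold was 69 to 139 for exercise in MM (129 with all mice), 16 to 43 in VV (29) and 225 to 374 averaged (330). The other alternatives gave 72 to 235, 5 to 55 and 153 to 573. For VV against MM it was 0 to 2 in exercised mice (0 with all) and 0 to 2 in sedentary mice (1 with all) with 1 mouse left out. No paired analysis was made because the mice were separate animals and the labels name no pairs. The first number of the mouse's name, of which 3 values occur in more than 1 group, was fitted as a random block instead (correlation 0.231), and the MM calls of Myc, Hif1a and Il4ra were lost, at limma adjusted p-values of 0.143, 0.0830 and 0.0697, and so was the averaged call of Igfbp5 (0.0501). Read depth is not known, which limits what can be said of Lif and Il6.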
